A study of Mus musculus with 12 samples.

Results

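Efferocytosis receptors and bridging molecules were followed as a group of 8 genes, *Gas6*, *Mfge8*, *Clu*, *Tgm2*, *Mertk*, *Axl*, *Stab1* and *Elmo1*. The members were the rows carrying these gene names in the count tables of both cell types, and all 8 were found among 52636 genes. Efferocytosis is the engulfment of dying cells by phagocytes, which in healing tissue clears spent neutrophils before they break open. A dying cell exposes phosphatidylserine, to which bridging molecules bind, and receptors on the phagocyte recognize either the bridge or the lipid itself. Engulfment then proceeds through adaptor proteins that activate the GTPase Rac, and the cargo is digested in lysosomes. The question addressed by the design was how CGRP, a neuropeptide released by sensory neurons, changes gene expression in each of these phagocytes.

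All cells came from the bone marrow of mice, which the study's methods give as C57BL/6J aged 8 to 12 weeks. Isolated neutrophils received either CGRP (1 nM) or saline (PBS), each for 4 h. Macrophages were grown from isolated monocytes in medium containing M-CSF (10 ng/ml), a growth factor that drives this differentiation, over 3 days before the same 4 h exposure, and the labels name the result monocyte/macrophage. Each of the 4 groups had 3 libraries, and nothing in the labels says whether libraries of a group came from separate mice, so that the p-values measure the spread between libraries, which may be technical. Because reverse transcription started from the poly-A tail, counts stem mostly from the 3′ end of transcripts, and levels of the members were compared between groups for one gene and not between members. A marker said to lead a list, or to be its most abundant, is the one with the highest CPM.

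Total counts per library were between 2719556 and 3631989 in saline neutrophils, 2196558 and 3270388 in CGRP neutrophils, 2536415 and 3477069 in saline macrophages, and 2002559 and 3259073 in CGRP macrophages. Levels are CPM, the counts of a gene relative to the library total, scaled by TMM (a correction for differences in RNA composition) over the 12 libraries. On this scale 3 counts, taken as the limit of detection, lay between 0.858 and 1.505 CPM, which covers counting error only. Every difference is given on the log2 scale from limma-voom, as CGRP against saline within a cell type unless stated otherwise, and a gene is said to have risen or fallen where its two-sided p, adjusted by Benjamini–Hochberg over all genes tested, was under 0.05.

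The labelled cell types were checked against marker genes. The 10 neutrophil markers, among them *S100a8*, *Ly6g* and *Cxcr2*, summed to 191864 ± 37334 CPM in saline neutrophils and to 301 ± 56.5 CPM in saline macrophages (SD, n = 3). The 9 monocyte and macrophage markers, among them *Csf1r*, *Adgre1* and *Cd68*, summed to 11242 ± 244 CPM in saline macrophages and to 983 ± 13.6 CPM in saline neutrophils. None of these markers was at 0 in every library of a group. *Ccr2* was the most abundant marker of the second list in saline neutrophils (315 CPM), and *C1qb* in saline macrophages (4240 CPM). The neutrophil libraries also held erythroid RNA, with *Hbb-bs* at 3805 CPM in the saline group. RNA from bulk samples cannot tell fewer cells of a type from less RNA per cell, which applies to every level below.

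*Tgm2* and *Clu* rose with CGRP in both cell types, and the other 6 members did not pass the test in either. In neutrophils 7 members could be tested, of which 2 rose and none fell, against 2.53% of the 9819 genes tested that changed in either direction (1.51% higher). In macrophages all 8 could be tested, of which 2 rose and none fell, against 7.43% of 9393 genes (3.46% higher). Both genes are among those the study itself named from these macrophage libraries, so their rise there is not independent evidence of a direction for the group. The median log2 fold change of the members tested was 0.10 in neutrophils and 0.19 in macrophages, beside 0.00080 and 0.0047 over all genes tested.

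**Figure D1:**
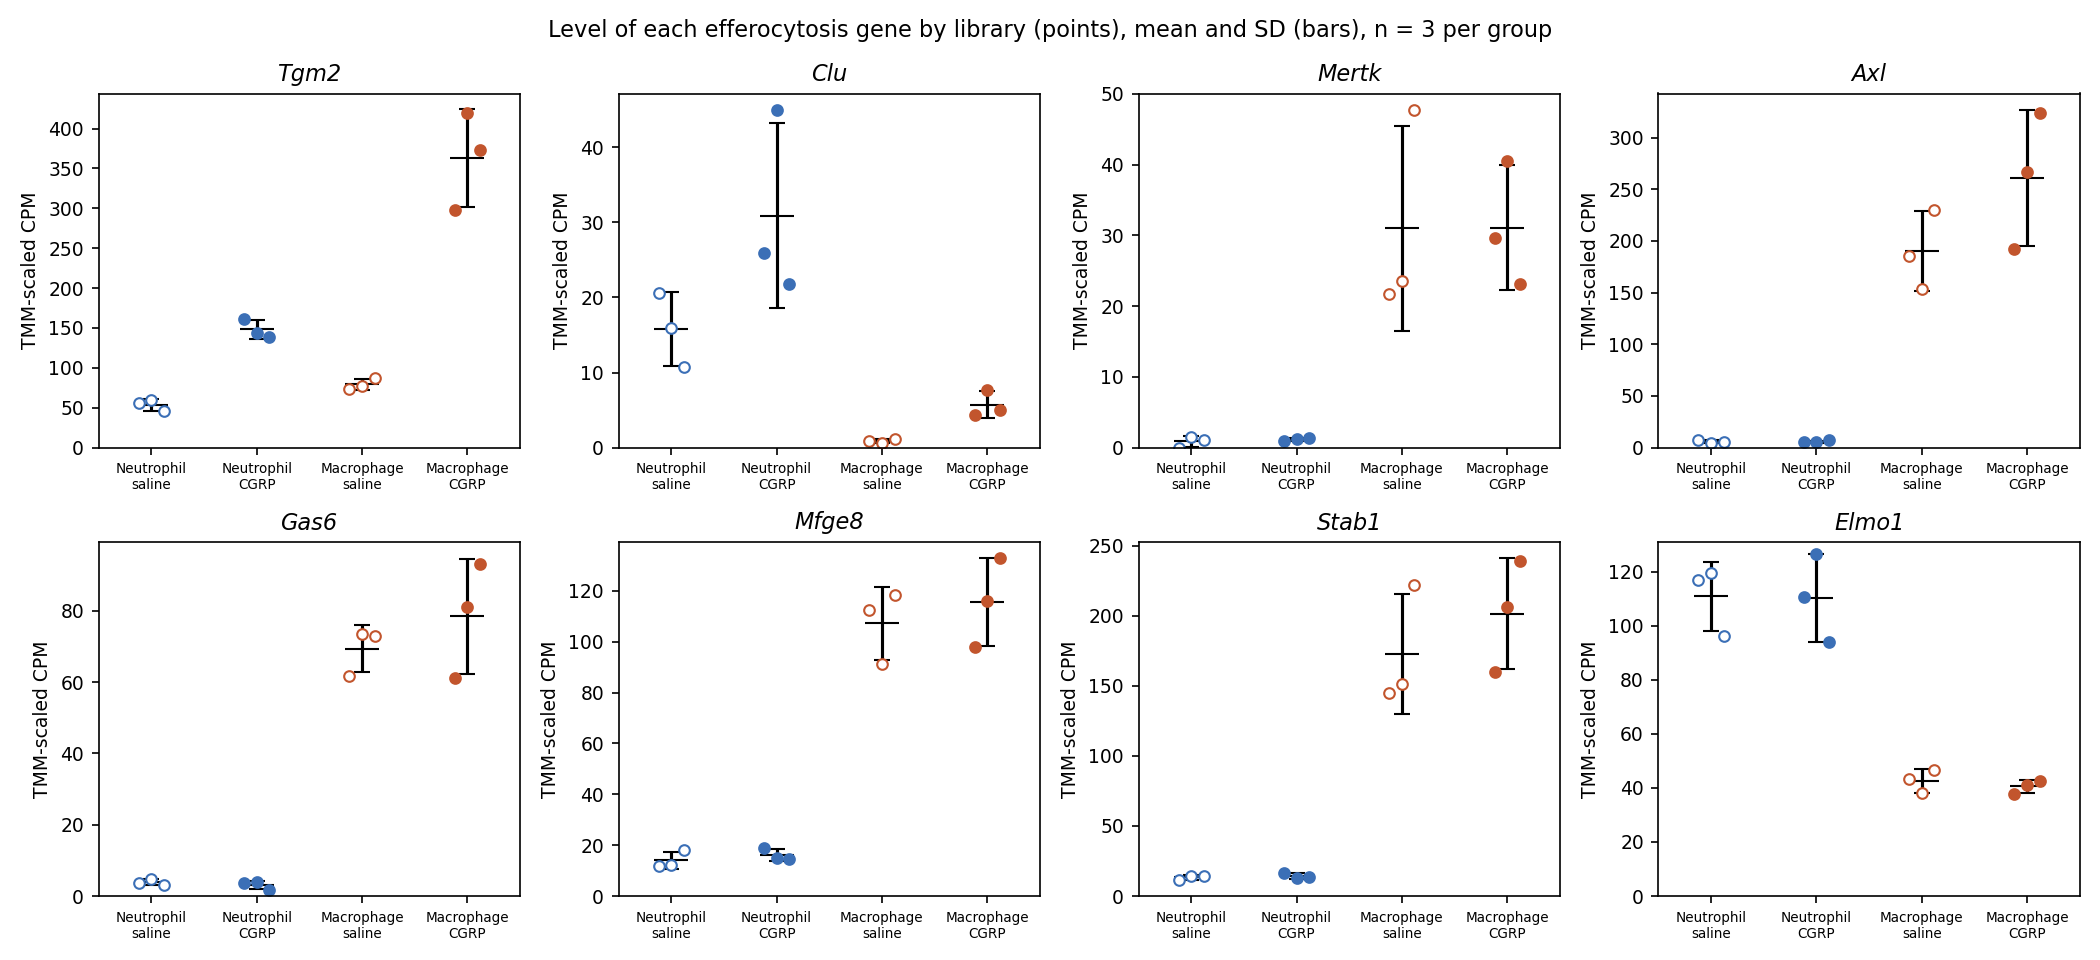
Level of each of the 8 genes in TMM-scaled CPM (vertical axes, linear from 0, a separate scale for each gene) in the 3 libraries of each of the 4 groups, with open points for saline, filled points for CGRP, and horizontal and vertical bars for the mean and SD. The CGRP points lie clear of the saline points of the same cell type for *Tgm2* and *Clu*, and overlap them for the other 6 genes.

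Gas6 protein is a bridge that binds phosphatidylserine with one end and a receptor tyrosine kinase of the Tyro3, Axl and Mertk family with the other. The gene (ENSMUSG00000031451) lies on the minus strand at chr8:13465374-13494490 of GRCm38. Saline macrophages had 61.8, 73.5 and 73.1 CPM (69.4 ± 6.65, SD, n = 3) and CGRP macrophages 61.2, 81.0 and 93.3 CPM (78.5 ± 16.2). The CGRP group held both the lowest and the highest of the 6 libraries, and the difference of 0.15 (95% confidence interval −0.21 to 0.50) had an adjusted p of 0.688. Saline neutrophils had 12, 16 and 9 counts (3.96 ± 0.851 CPM) and CGRP neutrophils 11, 14 and 4 counts (3.13 ± 1.23 CPM). These groups overlapped as well, and the interval of −1.15 to 0.53 around a difference of −0.31 spans changes of over 1 log2 unit in one direction (adjusted p = 0.827).

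*Mfge8* encodes another bridge, which links phosphatidylserine to integrins such as the one formed by the products of *Itgav* and *Itgb3*. It lies on the minus strand at chr7:79133768-79149060 (ENSMUSG00000030605). In macrophages its level was 112, 91.1 and 118 CPM with saline (107 ± 14.3) and 98.1, 116 and 133 CPM with CGRP (116 ± 17.4). The groups overlapped, and the difference of 0.10 (−0.22 to 0.43) did not pass the test (adjusted p = 0.776 from limma-voom). Neutrophils had 11.9, 12.2 and 17.9 CPM with saline and 18.8, 14.9 and 14.4 CPM with CGRP, where the highest saline library lay above the lower pair of CGRP libraries (0.25, −0.21 to 0.70, adjusted p = 0.711).

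*Clu* encodes clusterin, a secreted chaperone that binds debris and dying cells and is taken up with them. The gene (ENSMUSG00000022037) lies on the plus strand at chr14:65968483-65981547. In saline macrophages it had 3, 2 and 3 counts, all at or under the limit of detection, and with CGRP it had 14, 21 and 10 counts. The groups did not overlap, which held upward for 11.6% of the genes tested in macrophages. Summed over libraries, 45 against 8 counts gave a ratio of 6.85 after scaling, with an exact 95% counting interval of 3.196 to 16.8 that leaves out the spread between libraries. The adjusted p was 5.08e-03 (limma-voom), and it was 0.0640 without the first saline library and 0.0507 without the second.

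Neutrophils had far more *Clu*, with 66, 52 and 30 counts in the saline libraries (20.6, 15.9 and 10.8 CPM, mean 15.8 ± 4.93) and 80, 154 and 50 in the CGRP libraries (25.9, 44.9 and 21.8 CPM, mean 30.9 ± 12.3). The lowest CGRP library lay just above the highest saline library, as it did upward for 8.22% of genes tested in neutrophils, and CGRP replicate 2 stood well above the rest. The log2 fold change of 0.98 (0.44 to 1.53) had an adjusted p of 0.0468, close to the threshold. It fell to 0.64 (adjusted p = 0.284) without CGRP replicate 2, and the call was also lost without each of the 3 saline libraries in turn. With CGRP the level in neutrophils was still 5.67 times that in macrophages (counting interval 4.13 to 7.95).

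Clusterin is also carried by platelets, so their markers are given beside it. The 5 megakaryocyte and platelet markers, led by *Pf4* at 142 CPM, summed to 167, 169 and 166 CPM in the saline neutrophils and to 193, 127 and 192 CPM with CGRP. The sum was lowest in CGRP replicate 2, the library in which *Clu* was highest. None of the 5 markers was at 0 in every neutrophil library, 4 could be tested, and none passed the test. In macrophages the sum was 631, 973 and 676 CPM with saline and 958, 780 and 629 CPM with CGRP, nearly all of it *Pf4*. The 2 markers tested there did not pass, at 0.058 for *Pf4* (adjusted p = 0.899) and 0.78 for *Ppbp* (adjusted p = 0.438 from limma-voom), and *Gp9* and *Gp1bb* were at 0 in every saline macrophage library, with at most 2 counts in a CGRP library. The part of platelet RNA in the *Clu* levels was not tested.

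*Tgm2* encodes transglutaminase 2, a cross-linking enzyme that at the macrophage surface assists the integrin receptor and MFG-E8 in binding dying cells. It lies on the minus strand at chr2:158116402-158146436 (ENSMUSG00000037820). In neutrophils its level was 55.6, 59.3 and 45.6 CPM with saline (53.5 ± 7.12) and 161, 144 and 139 CPM with CGRP (148 ± 11.7). In macrophages it was 73.5, 77.1 and 87.4 CPM with saline (79.3 ± 7.24) and 298, 420 and 373 CPM with CGRP (363 ± 61.6). The groups were far apart in both cell types, with log2 fold changes of 1.48 (adjusted p = 7.16e-08) and 2.19 (adjusted p = 1.75e-07) in limma-voom. Omitting any single library left the neutrophil value at 1.38 to 1.55 and the macrophage value at 2.08 to 2.32, and the test was passed each time. No pair of the 4 groups overlapped for *Tgm2* or for *Clu*, but their order differed. *Tgm2* went from CGRP macrophages through CGRP neutrophils and saline macrophages down to saline neutrophils, whereas for *Clu* both neutrophil groups were above both macrophage groups.

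Mertk and Axl are the receptor tyrosine kinases to which Gas6 binds. *Mertk* (ENSMUSG00000014361) lies on the plus strand at chr2:128698956-128802894 and had 0, 5 and 3 counts in saline neutrophils and 3, 4 and 3 in CGRP neutrophils, too few to test. Macrophages had 21.7, 23.6 and 47.7 CPM with saline (30.99 ± 14.5) and 29.7, 40.5 and 23.1 CPM with CGRP (31.1 ± 8.80). Both means were nearly the same, but saline replicate 3 stood above all other libraries, and the interval of −0.46 to 0.70 around 0.12 leaves room for changes of some size in both directions (adjusted p = 0.861).

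*Axl* (ENSMUSG00000002602) lies on the minus strand at chr7:25757273-25788705. Its level in macrophages was 186, 153 and 230 CPM with saline (190 ± 38.7) and 192, 267 and 324 CPM with CGRP (261 ± 65.9). Only CGRP replicate 1 fell within the saline range. The log2 fold change of 0.44 (0.06 to 0.83) had an unadjusted p of 0.0277 and an adjusted p of 0.179 from limma-voom. It was 0.65 (adjusted p = 0.0169) without CGRP replicate 1, and 0.53 (adjusted p = 0.0173) when voom weighted the libraries by quality. Across single omitted libraries the adjusted p ran from 0.0169 to 0.538. In neutrophils *Axl* had between 14 and 24 counts per library, with 5.84 ± 1.61 CPM in the saline group and 5.81 ± 1.02 CPM in the CGRP group, and the difference was 0.0047 (−0.67 to 0.68).

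*Stab1* encodes stabilin-1, a scavenger receptor that binds phosphatidylserine directly, and lies on the minus strand at chr14:31139013-31168641 (ENSMUSG00000042286). Macrophages had 145, 151 and 222 CPM with saline (173 ± 42.7) and 160, 206 and 239 CPM with CGRP (202 ± 39.6). The highest saline library lay between the upper pair of CGRP libraries, and the difference of 0.23 (−0.14 to 0.61) had an adjusted p of 0.525. In neutrophils, levels between 11.6 and 14.3 CPM with saline and between 12.6 and 16.5 CPM with CGRP overlapped (0.10, −0.34 to 0.55, adjusted p = 0.899 from limma-voom).

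*Elmo1* encodes an adaptor that, with a DOCK protein, activates Rac during engulfment, and lies on the plus strand at chr13:20090596-20608353 (ENSMUSG00000041112). In neutrophils it was at 117, 120 and 96.1 CPM with saline (111 ± 12.8) and 110, 126 and 93.8 CPM with CGRP (110 ± 16.3). The groups overlapped, and the difference was 0.0097, with an interval of −0.23 to 0.25. In macrophages it was at 43.5, 37.9 and 46.6 CPM with saline (42.7 ± 4.38) and 37.8, 41.2 and 42.6 CPM with CGRP (40.6 ± 2.49), and again the groups overlapped (−0.07, −0.42 to 0.28).

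**Figure D2:**
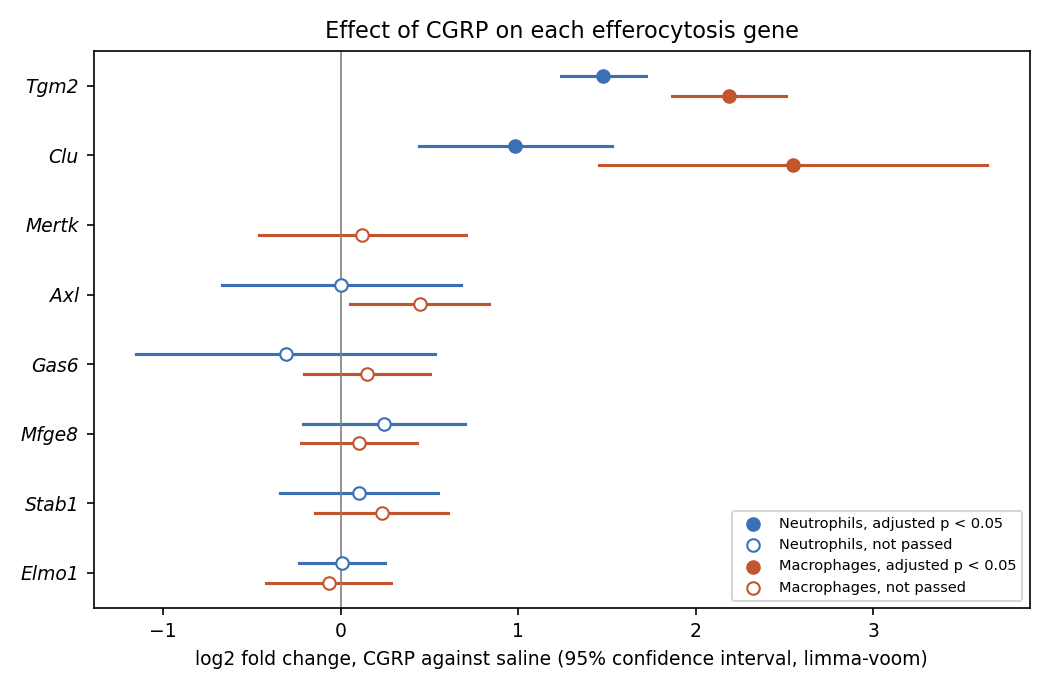
Log2 fold change of CGRP against saline (horizontal axis) for each of the 8 genes in neutrophils (blue) and macrophages (orange), with 95% confidence intervals from limma-voom as lines and filled points for an adjusted p under 0.05. *Tgm2* and *Clu* lie to the right of 0 in both cell types, the *Axl* interval in macrophages (0.06 to 0.83) is open because its adjusted p was 0.179, and *Mertk* has no neutrophil point because it had too few counts.

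An interaction term over all 12 libraries tested whether the response of a member to CGRP differed between macrophages and neutrophils. None of the 8 members passed the adjusted threshold, against 2.36% of 10694 genes, and 2 had an unadjusted p under 0.05, against 13.2% of all genes. For *Tgm2* the fold change in macrophages less that in neutrophils was 0.72 (0.31 to 1.13), with an adjusted p of 0.0565 in limma-voom. Some settings gave a lower value, among them quality weights (3.01e-03) and edgeR's quasi-likelihood test (0.0399), and others a higher one, up to 0.172 under another setting and 0.201 when 1 library was omitted, so that the call depends on the fit. For *Clu* the difference was 1.59 (0.10 to 3.08, adjusted p = 0.335), which rests on the 8 counts of the saline macrophages. Among the other 6 members the smallest adjusted p was 0.767.

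The cell types were also compared at rest. All 8 members differed between saline macrophages and saline neutrophils, where 67.9% of all genes tested did, 6 of them higher in macrophages (32.5% of all genes) and 2, *Clu* and *Elmo1*, lower (35.4%). *Mertk* was higher in macrophages by a ratio of 34.6 (288 against 8 counts, exact 95% counting interval 17.3 to 80.9). Its fitted log2 difference of 5.37 moved to 4.28 without saline neutrophil replicate 1, the library with 0 counts, and to 6.05 without saline neutrophil replicate 2, and passed in both fits. In the same direction the log2 differences were 5.00 for *Axl* (SE 0.34), 4.07 for *Gas6* (SE 0.32), 3.65 for *Stab1* (SE 0.24), 2.95 for *Mfge8* (SE 0.20) and 0.56 for *Tgm2* (SE 0.15, adjusted p = 2.70e-03 from limma-voom). For *Elmo1* the difference was −1.39 (SE 0.14), and *Clu* was higher in neutrophils by a ratio of 19.3 (148 against 8 counts, interval 9.52 to 45.4). Cell type and culture cannot be told apart here, since the macrophages had 3 days with M-CSF and the neutrophils did not.

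The neutrophil libraries held some RNA of monocyte and macrophage markers, and it is given beside the members because 6 of the 8 were higher in macrophages. As a percentage of the saline macrophage level, the saline neutrophil level was 2.80% for *Mertk*, 3.08% for *Axl*, 5.70% for *Gas6*, 7.72% for *Stab1* and 13.1% for *Mfge8*. The same percentage was 1.23% for *C1qc*, 2.04% for *C1qb*, between 7.18% and 13.4% for *Fcgr1*, *Cd68*, *Mrc1*, *Adgre1* and *C1qa*, 25.9% for *Csf1r* and 111% for *Ccr2*. The 5 members lay within the range of these markers, but that range was wide (1.23% to 111%) and held *Tgm2* as well. What part monocytes or macrophages had in the neutrophil levels of the members was not tested. *Elmo1* at 260% and *Clu* at 1869% lay above all 9 markers, and *Tgm2* at 67.4% above all but *Ccr2*, which is abundant in monocytes.

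**Figure D3:**
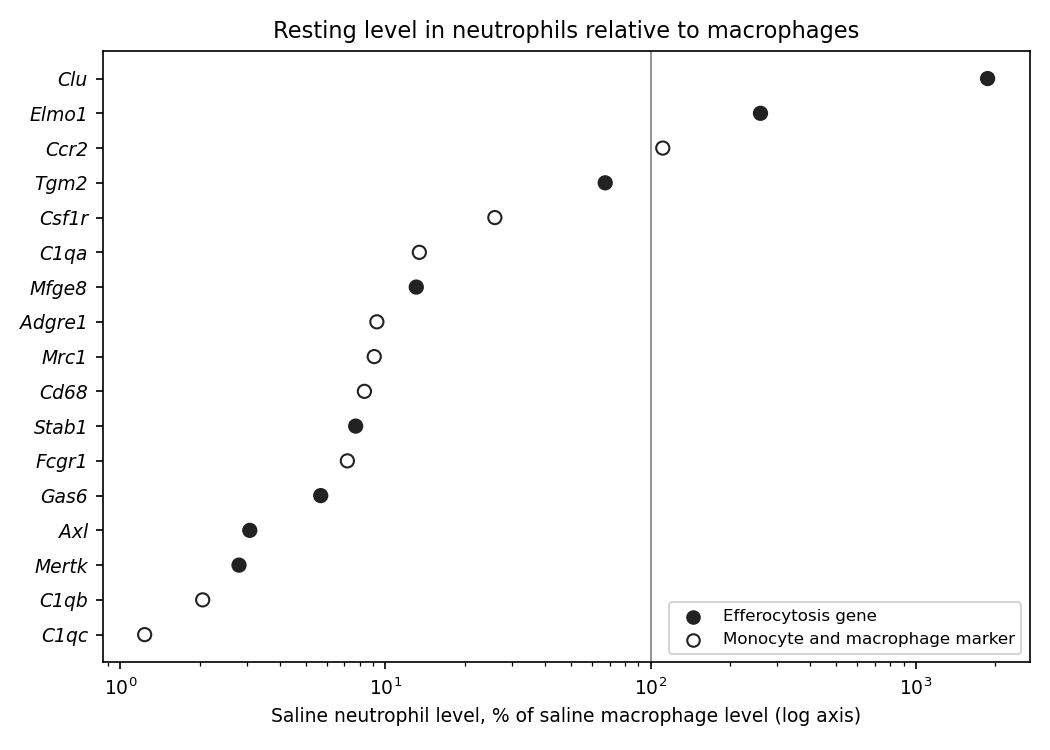
Level in saline neutrophils as a percentage of the level in saline macrophages (horizontal log axis, ratio of the means of 3 libraries each) for the 8 genes (filled) and 9 monocyte and macrophage markers (open). *Mertk*, *Axl*, *Gas6*, *Stab1* and *Mfge8* lie among the markers between 2.80% and 13.1%, and the vertical line marks equal levels.

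In the CGRP macrophages, *Axl*, *Gas6*, *Mfge8*, *Stab1* and *Elmo1* ordered the libraries alike, each lowest in replicate 1 and highest in replicate 3, an observation made after the values were seen. As a percentage of the saline mean, *Axl* was 101%, 140% and 170% in CGRP replicates 1, 2 and 3, *Gas6* 88.2%, 117% and 134%, *Stab1* 92.6%, 119% and 138%, and *Mfge8* 91.5%, 108% and 124%. *Elmo1*, the one of these that was higher in neutrophils, was at 88.6%, 96.7% and 99.9%. *Mertk*, at 95.7%, 131% and 74.4%, *Tgm2* (298, 420 and 373 CPM) and *Clu* (4.37, 7.73 and 5.02 CPM) did not follow this order. The sum of the 9 monocyte and macrophage markers did, at 102%, 113% and 118%, as did the 7 fibroblast and stromal markers, led by *Col1a2*, with 40.6, 56.7 and 73.7 CPM. The 5 dendritic cell markers, led by *Ccr7*, had the same order at 20.6, 26.9 and 31.1 CPM, all above the 15.4, 16.1 and 14.7 CPM of the saline libraries. Of these markers 1 was at 0 in every macrophage library, and the 2 that could be tested did not pass, at 0.61 for *Ccr7* (adjusted p = 0.180) and 1.21 for *Cd209a* (adjusted p = 0.125 from limma-voom). Total counts ran in the reverse order (3259073, 2692858 and 2002559). The neutrophil marker sum (405, 355 and 330 CPM) and the megakaryocyte and platelet sum (958, 780 and 629 CPM) also did. The sums of the remaining lists followed neither order. Single markers did not all keep the order of their sum, with *Fcgr1* at 183, 173 and 163 CPM and *Col3a1* at 7.18, 4.79 and 5.52 CPM. Among the saline macrophages, replicate 3 had the lowest total (2536415) and was likewise the highest for *Axl* (121%), *Stab1* (128%), *Mfge8* (110%), *Elmo1* (109%), *Mertk* (154%), the monocyte and macrophage marker sum (102%) and the stromal sum (60.6 CPM), though not for *Gas6* or the dendritic cell sum. The part of depth or of other cells in these differences was not tested. None of the marker genes reported here that could be tested rose in macrophages, and *Ccr2* fell in both cell types. Of the stromal markers 2 of 7 were at 0 in every library of the saline macrophages, and 2 of 7 in every library of the CGRP macrophages.

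**Figure D4:**
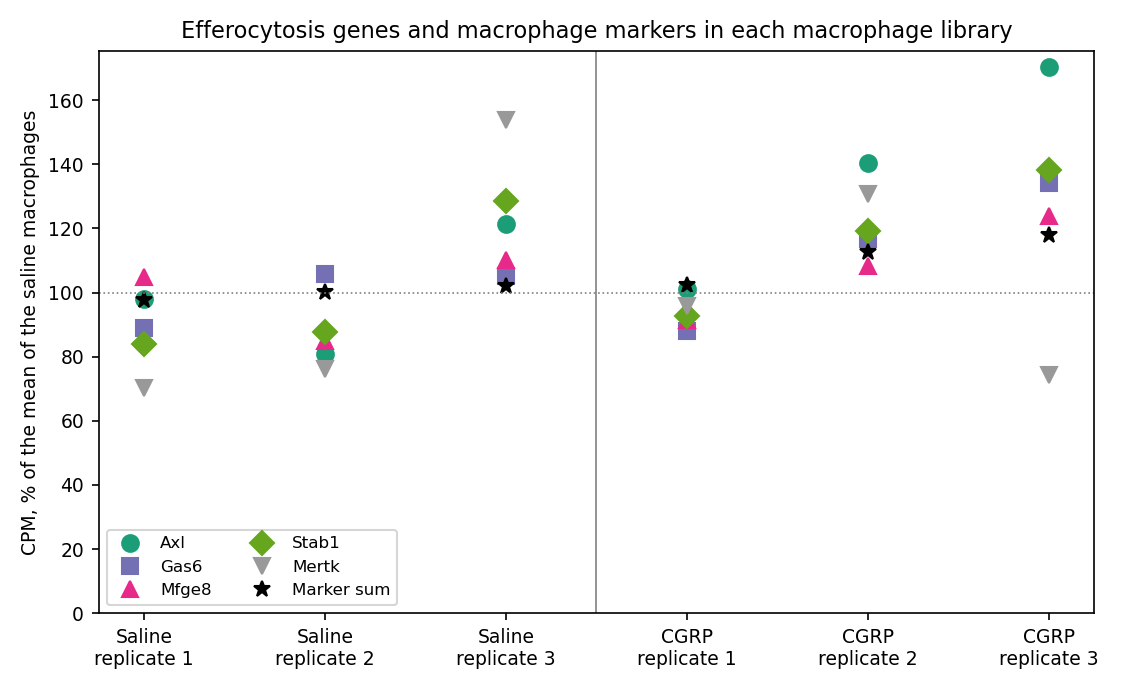
Level of 5 of the 8 genes and summed level of 9 monocyte and macrophage markers (stars) in each macrophage library, as a percentage of the mean of the 3 saline macrophage libraries (vertical axis, from 0). In CGRP replicate 3 *Axl* reached 170% and the marker sum 118%, and in CGRP replicate 1 they were at 101% and 102%.

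Around the 8 genes, 78 other genes of the pathway were examined in 5 lists by role, of which 77 were found in the tables. In neutrophils 61 could be tested, of which 2 rose and 3 fell (8.20%), and the median difference was −0.028 (log2). In macrophages 58 could be tested, of which 4 rose and 5 fell (15.5%), and the median was −0.025. For comparison, 2.53% and 7.43% of all genes changed and the medians were near 0. The study itself named *Thbs1*, *Itgav* and *Itgb3* from these libraries, and the lists were chosen with earlier results known. These shares are therefore not independent evidence for the pathway. *Thbs1* and *Anxa1* were the pair that changed in both cell types.

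Among 12 other bridging and opsonin genes, 10 were tested in each cell type, of which 1 rose and 1 fell. *Thbs1*, which encodes thrombospondin-1, a bridge between dying cells and the receptor CD36 with integrins, was at 42.3, 38.2 and 70.6 CPM in saline macrophages and at 1336, 1757 and 1621 CPM with CGRP. It rose in neutrophils from 111 ± 6.69 to 583 ± 116 CPM, and the log2 fold changes were 5.02 and 2.39. *Anxa1* encodes annexin A1, which is released by dying cells and promotes their uptake. It fell in macrophages from 1886, 2292 and 1500 CPM to 1297, 958 and 1016 CPM (−0.78, adjusted p = 5.40e-03) and by a smaller amount in neutrophils (−0.36, adjusted p = 0.0491 from limma-voom). The neutrophil call was kept in 2 of 6 fits that each omitted 1 library. *Pros1*, whose product protein S is a ligand of Tyro3 and Mertk, was at 37.1 ± 4.61 CPM in saline macrophages and 31.4 ± 4.00 CPM with CGRP, and did not pass (−0.24, adjusted p = 0.516).

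Of 21 other recognition receptors found, 13 were tested in neutrophils (1 rose, 1 fell) and 12 in macrophages (1 fell). The integrin gene *Itgb3* fell in neutrophils from 33.4, 33.9 and 25.8 CPM to 11.01, 7.88 and 4.80 CPM (−1.96, adjusted p = 7.51e-05) and had at most 6 counts in any macrophage library. Its partner *Itgav* fell in macrophages from 37.2, 33.8 and 54.8 CPM to 13.1, 25.4 and 20.6 CPM (−1.11, adjusted p = 0.0132 from limma-voom). Together these products form an integrin to which MFG-E8 binds. *Cd300lf*, a receptor for phosphatidylserine, rose in neutrophils from 201 ± 21.7 to 292 ± 30.8 CPM (0.55, adjusted p = 2.14e-03). The remaining relatives of the members were scarce, as *Tyro3* had at most 1 count in any library, and *Stab2* had none in neutrophils and between 6 and 9 counts in macrophages.

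Of the 11 engulfment genes tested in each cell type, none changed in neutrophils (limma-voom gave 3 of them an unadjusted p under 0.05, as it did 12.8% of all genes), and in macrophages 1 rose and 1 fell. *Rhog*, whose GTPase product recruits ELMO proteins to the membrane, rose in macrophages from 275 ± 33.8 to 464 ± 81.0 CPM (0.75, adjusted p = 4.96e-03). *Elmo2*, the closest relative of *Elmo1* on the list, fell in macrophages from 62.9, 46.9 and 59.8 CPM to 35.6, 32.8 and 36.1 CPM (−0.68, adjusted p = 0.0248), a call kept in 3 of 6 fits that each omitted 1 library. The genes of the DOCK partners did not pass in macrophages, at −0.31 for *Dock1* (adjusted p = 0.480) and 0.09 for *Dock2* (adjusted p = 0.813).

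Digestion and lipid handling genes numbered 19 tested in neutrophils (1 fell) and 20 in macrophages (2 rose, 1 fell). *Abca1*, which exports the cholesterol that engulfed cells bring in, rose in macrophages from 44.6, 37.6 and 65.2 CPM to 113, 180 and 193 CPM (1.73, adjusted p = 7.52e-05). *Pparg*, encoding a lipid-sensing nuclear receptor that is known to favour efferocytosis genes, fell there from 70.1, 63.0 and 82.8 CPM to 18.4, 22.5 and 22.6 CPM (−1.76, adjusted p = 1.72e-05). For *Abca1* all CGRP libraries lay above all saline libraries, which held upward for 11.6% of the genes tested in macrophages. *Uvrag*, which acts in the phagosome maturation that uses autophagy proteins, rose in macrophages (0.94, adjusted p = 5.17e-03), and *Lipa*, the lysosomal acid lipase, fell in neutrophils (−0.63, adjusted p = 0.0127), where 3 of the 6 fits without one library kept the call.

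Of the 8 genes for inhibitory signals and receptor shedding, all were tested in neutrophils and none changed, with 1 at an unadjusted p under 0.05 in limma-voom. In macrophages 5 were tested and 1 fell. This was *Sirpa*, whose product receives the signal of CD47 that restrains engulfment, and it went from 733, 625 and 880 CPM to 370, 401 and 468 CPM (−0.84, adjusted p = 1.49e-03). *Adam17* and *Adam10*, the proteases of this list that cut receptors from the cell surface, did not pass in either cell type.

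**Figure D5:**
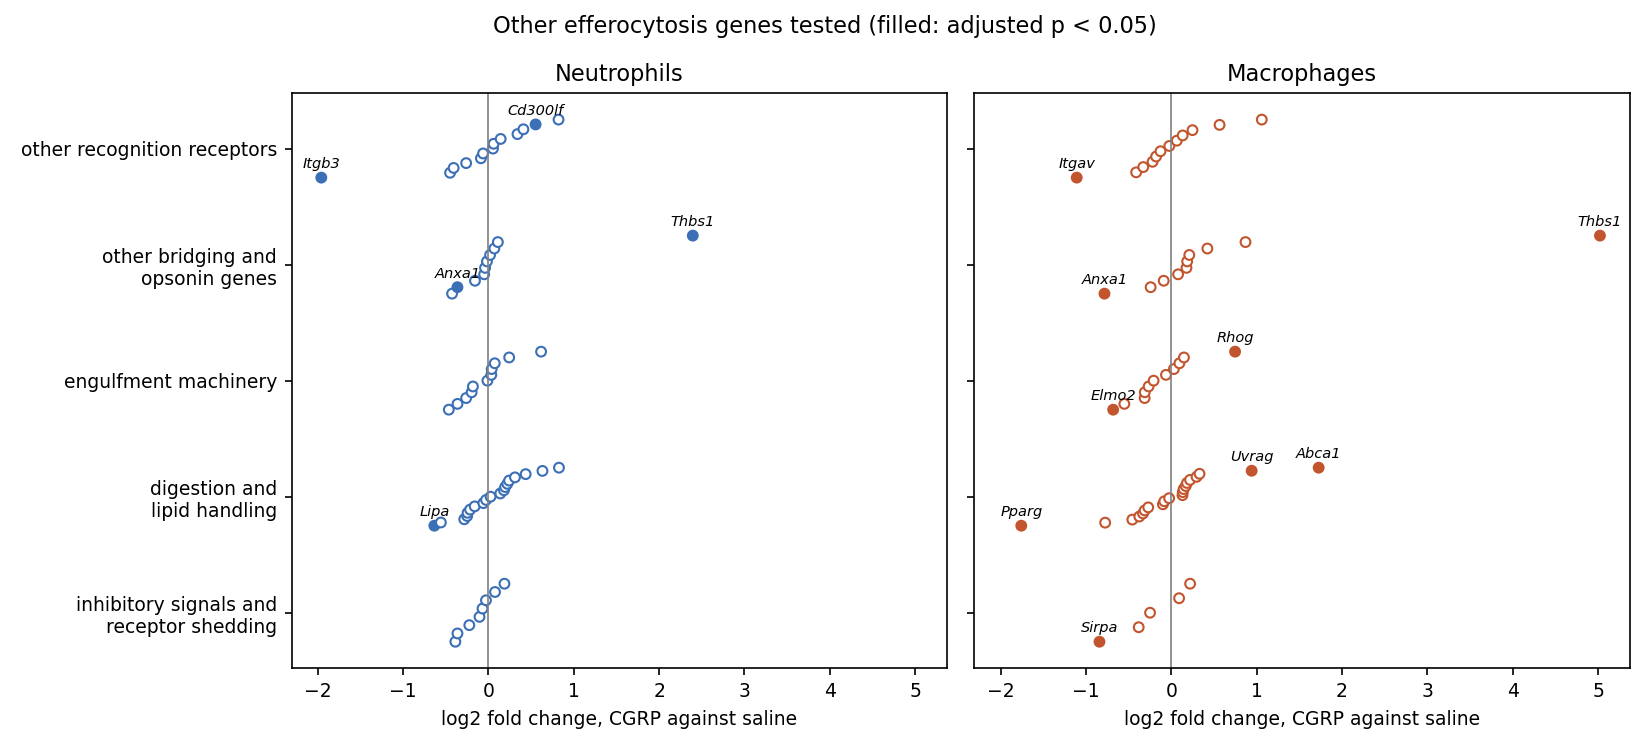
Log2 fold change of CGRP against saline (horizontal axis, the same scale in both panels) for the other efferocytosis genes tested in neutrophils (left) and macrophages (right), in 5 rows by role, with filled and named points for an adjusted p under 0.05 in limma-voom. *Thbs1* stands apart at 2.39 and 5.02, and most points of each row lie close to 0.

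For each member the genes with the most similar profile over the 12 libraries were found by Pearson's r of log2 CPM among 10693 genes, a description in which the cell type difference dominates. *Axl* was closest to *Fcrls* and *Hexa* (r = 0.997 for both), *Stab1* to *Pld3* and *Ctsa* (0.997 for both), *Mfge8* to *Mlf2* (0.998) and *Fkbp1a* (0.997), *Gas6* to *Snx8* (0.996) and *Lamp1* (0.994), and *Mertk* to *Ilvbl* (0.988) and *Pld2* (0.987). *Elmo1* was closest to *Ear6* and *Chil5* (0.992 for both), *Clu* to *Mpp7* (0.984) and *Stk17b* (0.981), and *Tgm2*, whose profile follows CGRP as well as cell type, to *Cnnm2* (0.974) and *Antxr2* (0.967).

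Counts of some members could include reads of a neighbour, since whether counting used the strand is not given in the sources used here. *Rprd1b* is transcribed against *Tgm2* and shares 370 exonic bases with it, and with a maximum of 147 counts per library it did not change (−0.16 in neutrophils, −0.08 in macrophages). *Nt5dc2* shares 112 bases with *Stab1* on the opposite strand and did not change with CGRP either (0.15 and −0.11). Between saline macrophages and saline neutrophils both differed in limma-voom. *Nt5dc2* was higher in macrophages, as *Stab1* was (1.80, adjusted p = 3.00e-06), and *Rprd1b* was lower, unlike *Tgm2* (−1.34, adjusted p = 6.08e-07). The part of their reads in the counts of the members was not tested. At *Elmo1*, the antisense gene *Gm32036* and the intronic gene *Gm47664* each had at most 17 counts. In the last 500 bases of the transcripts, where these reads fall, the share of 31-base sequences that occur in another gene was 6.29% for *Stab1* and 0 for the other 7 members.

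The promoters of the members were searched for the binding motifs of factors that respond to cyclic AMP, the second messenger of the CGRP receptor, and of AP-1. RefSeq windows of 300 bases around the start site (250 before, 50 from it on, GRCm38.p6) were found for 6 of the 8 members, all except *Tgm2* and *Clu*, in 7 windows. On both strands, TGACGTCA occurred in 1.79%, its part TGACG in 20.8% and TGACTCA in 5.20% of all 32851 windows. The members' windows held 1 match, TGACG at *Stab1*, on the strand of the gene with its first base 4 bases downstream of the start site. It is shown because it was the 1 match, as 29 bases on the minus strand of chr14:31168621-31168649, with the motif in capitals.
Stab1: gtgggggtgagcTGACGgatagcttttaa
The match is a description of these letters and not of a binding site, and *Stab1* did not change with CGRP in either cell type.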

How the data were processed

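RNA from 12 samples was sequenced with unique molecular identifiers. The authors collapsed PCR copies by these identifiers in nfCore/RNAseq, used STAR against GRCm38 and featureCounts, and deposited raw counts, without normalization, in one table per cell type. The annotation release and the strand setting are not given in the sources used here. Columns were matched to samples by name. No pair of libraries held identical counts.

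Genes were filtered with edgeR's filterByExpr, a step the study's methods do not name. They were then scaled by TMM and tested with limma-voom, as in those methods, on the 6 libraries of a cell type. The interaction and the resting contrast used all 12. The steps were checked on simulated data. Other settings tried were DESeq2, edgeR's quasi-likelihood test, DESeq2 size factors, no TMM, other filters on low counts, quality weights, a replicate block, a single fit and leaving out each library.

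The members and gene lists were chosen with earlier results of these data known. Named genes are the 8 members, listed genes that passed in a CGRP comparison, relatives of the members, overlapping genes and the closest profiles. *Pecam1* was named after its values were seen. *C1qa*, *C1qb* and *C1qc* stand in both the bridging and the macrophage marker list, and *Itgam* was not found by name. Marker lists for endothelial, B, T and NK, dendritic and eosinophil, mast and basophil cells were also summed. One gene of the monocyte and macrophage marker list is not reported here and was left out of its sums. In these other cell lists no gene tested changed with CGRP. Positions came from GENCODE M21, which held 52489 of the identifiers. R 4.3.3, limma 3.58.1, edgeR 4.0.16 and DESeq2 1.42.0 were used, with Python 3.11.15, pandas 2.3.3 and matplotlib 3.10.9.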

Additional observations from a re-analysis of the deposited data

Results flagged for a closer look

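The effect of CGRP differed between macrophages and neutrophils for 2 of the 63 other efferocytosis genes tested in the interaction over 12 libraries (3.17%), beside 2.36% of all 10694 genes. For *Thbs1*, the bridge described above, the log2 fold change was larger in macrophages by 2.64 (SE 0.24, adjusted p = 4.84e-07 in limma-voom), and it passed in all 12 fits that each omitted 1 library and in 8 of 8 alternatives. For *Pecam1*, an adhesion gene whose product on living cells is known to repel phagocytes, the difference was 3.06 (SE 0.79, adjusted p = 0.0394). The saline macrophages had 0, 2 and 6 counts of *Pecam1* and the CGRP macrophages 12, 6 and 13, whereas the neutrophils had 28, 25 and 27 with saline and 18, 28 and 13 with CGRP. *Pecam1* passed in 3 of 12 such fits, where the difference ran from 1.93 to 3.94, and in 4 of 7 alternatives. The lowest value came without the first saline macrophage library, the one with no count (adjusted p = 0.244), and the highest without the third (adjusted p = 0.0156).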

How the results depend on the processing

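The calls of *Tgm2* held in both cell types under all 9 alternatives and without each library, and those of *Clu* did so only in part. In neutrophils *Clu* passed in 2 of 6 fits that each omitted 1 library and in 7 of 9 alternatives, and without TMM (adjusted p = 0.0593) or in a single fit over 12 libraries (adjusted p = 0.0685) 1 member was called. In macrophages *Clu* passed in 4 of those 6 fits, and 1 member was called under the filter of 10 counts in each library, which removes *Clu* and leaves 5 members in the resting contrast. Without one library, the number of members called was 1 to 2 in neutrophils, 1 to 3 in macrophages, 0 to 1 in the interaction and 8 at rest, and the number of genes called was 138 to 234, 347 to 765, 149 to 328 and 6889 to 7559. Gene counts moved by over 1.5 times in neutrophils without saline replicates 1 or 2 (138 each) or CGRP replicate 2 (153), in macrophages without saline replicate 1 (347) or CGRP replicates 2 (348) or 3 (439), and in the interaction without saline macrophage replicate 1 (149). The single fit called 137 genes in neutrophils and 1050 in macrophages, and quality weights called 1406 in macrophages and 520 in the interaction. In the interaction 1 member (*Tgm2*) was called in edgeR, DESeq2, with quality weights and with the block.

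Same-numbered libraries deviated from their group means with correlations of −0.013 to 0.137 in neutrophils and −0.179 to 0.273 in macrophages, so the numbers were not taken as pairs. A replicate block called 266 genes in neutrophils, 915 in macrophages, 295 in the interaction and 7369 at rest. Under the block *Axl* passed in macrophages (0.45, adjusted p = 0.0467), as did *Tgm2* (adjusted p = 0.0271) and *Sirpa* (adjusted p = 0.0339) in the interaction, and *Anxa1* in neutrophils did not (adjusted p = 0.0936).

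Some directions turned with the setting or with 1 library omitted, none of them called, and the causes were not tested. Not all of these values were near 0. In the interaction *Cd300lf* was at 0.52 with all libraries, and *Mertk* at −0.80 with DESeq2 size factors. In neutrophils *Axl* was −0.019 in edgeR, −0.014 in DESeq2 (which gave it no adjusted p), −0.0056 without a filter, −0.0078 with the block and −0.011 in the single fit, *Elmo1* −0.00079 without a filter and −0.0080 in the single fit, and *Itgav* 0.050 in edgeR, 0.049 with the block and 0.010 with quality weights. Leaving out a library gave −0.23 to 0.21 for *Axl*, −0.11 to 0.10 for *Elmo1*, −0.0099 to 0.20 for *Stab1* and −0.50 to 0.36 for *Itgav* in neutrophils. It gave −0.090 to 0.45 for *Mertk*, −0.017 to 0.22 for *Mfge8* and −0.063 to 0.24 for *Dock2* in macrophages. In the interaction it gave −1.48 to 0.29 for *Mertk*, −0.19 to 0.026 for *Elmo1*, −0.19 to 0.39 for *Dock1*, −0.081 to 0.38 for *Pros1*, −0.0047 to 0.33 for *Stab1* and −0.0017 to 1.02 for *Cd300lf*. Without TMM the median of all genes in the interaction moved from 0.020 to −0.098.

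With 2002559 to 3631989 counts per library, changes of *Mertk* in neutrophils were not detectable, and those of *Clu* in macrophages rest on 45 and 8 counts.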

Other observations

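Markers of other cells were measured beside the members. In neutrophils the eosinophil, mast cell and basophil markers, led by *Prg2*, summed to 1045 ± 90.8 CPM in the saline and 997 ± 86.1 CPM in the CGRP group (SD, n = 3), and the erythroid markers to 6061 ± 773 and 5922 ± 708 CPM. The B cell markers, led by *Cd79b*, summed to 83.3 and 93.9 CPM in neutrophils and to 31.8 and 38.0 CPM in macrophages, where 3 of the 4 were at 0 in every library. T and NK cell markers summed to 19.9 and 16.01 CPM in neutrophils and to 0.509 and 0.602 CPM in macrophages. Endothelial markers summed to 7.82 CPM or less in every group, and dendritic cell markers to 24.3 and 24.7 CPM in neutrophils and to 15.4 ± 0.720 and 26.2 ± 5.27 CPM in macrophages, where the groups did not overlap. In macrophages *Pf4* alone reached 757 CPM in the saline and 782 CPM in the CGRP group, while the neutrophil markers, led by *S100a8*, summed to 301 ± 56.5 and 363 ± 38.3 CPM.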
